A study of Sorghum bicolor with 64 samples.

Results

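The leaf transcriptome of sorghum plants that kept their heads was compared between 3 and 10 d after anthesis. The members are all leaf samples of intact plants with a data column: 6 taken at 3 d and 6 taken at 10 d, or 12 of the 24 leaf samples with data and of 64 labelled samples in all. Every gene of the leaf table, 16386 in number, was compared between the days with genotype as a covariate.

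After anthesis the grain becomes the main sink of a cereal, and the upper leaves supply it. A sorghum leaf fixes carbon by the C4 pathway: mesophyll cells capture CO2 with phosphoenolpyruvate (PEP) carboxylase, bundle sheath cells release it again to Rubisco, and the sucrose that is made is exported through the phloem by SWEET pores and SUT sucrose transporters. As a leaf ages it lowers its photosynthesis, dismantles chloroplasts and proteins, and sends nitrogen, carbon and minerals to the sink, often with more transcripts of proteases and of defence genes.

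The plants were near-isogenic lines of Tx623 sorghum grown in the field that differ at the *D* (Dry stalk) locus. *DD* plants carry a functional copy of the NAC transcription factor gene *SbNAC074A*, and *dd* plants a copy that encodes a truncated protein, and the sources used here name no other allele or agent. The middle of the second leaf below the flag leaf was taken from intact controls, and the same leaf was taken on the same days from plants whose heads had been cut off at anthesis. Intact *DD* and *dd* plants gave 3 samples each at 3 d and at 10 d, and of 16 such samples labelled, the other 4 have no column and were not analysed here.

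Values are TPM, each transcript's length-corrected share of its sample scaled to a fixed total, so more of some transcripts means less of others. TPM keeps no record of read depth, which is unknown here, and precision is judged from the spread between samples. The labels do not say whether a replicate is 1 plant, so p-values measure the spread between these samples. The tissue label was checked with a gene of the C4 pathway, pyruvate, phosphate dikinase (*Sobic.009G132900*), which regenerates PEP in mesophyll cells. All 12 samples held 8792 TPM or more of it, but no other tissue was compared. The authors had dropped genes of low TPM, and no gene analysed here was at 0 in all 12 samples. That no gene of the marker lists was at 0 throughout therefore cannot test the label.

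The days did not separate cleanly in a principal component analysis. The first component held 41.3% of the variance and the second 18.6%. On the first, *dd* 3 d replicate 4 lay at 29.58, among the 10 d samples, and *DD* 10 d replicate 2 lay at -18.45, among the 3 d samples. No 2 samples held identical values, and their pairwise correlations ran from 0.899 to 0.982. Ranges over the fits that each left out 1 sample are given beside the results they change most.

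**Figure D1:**
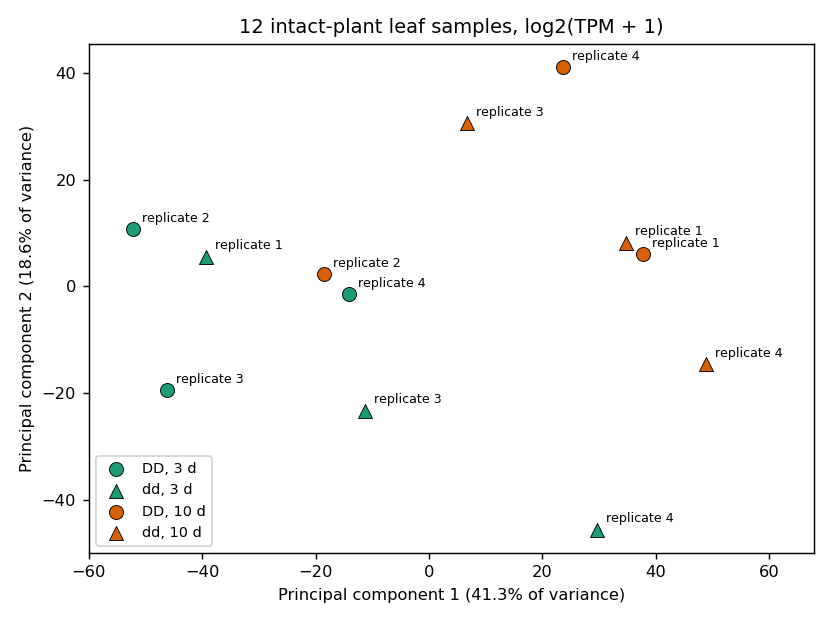
First against second principal component of log2(TPM + 1) in the 12 leaf samples of intact plants, with the share of variance on each axis (colour, day; shape, genotype). Most 3 d samples lie left of most 10 d samples, but *dd* 3 d replicate 4 at 29.58 and *DD* 10 d replicate 2 at -18.45 lie on the other day's side.

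Few genes passed a strict test. In a limma fit on log2(TPM + 1), 51 genes changed at an adjusted p below 0.01, the study's threshold, of which 26 rose and 25 fell; that is 0.311% of all genes tested. Of these, 24 changed by at least 1 log2 unit and are called DEGs, 13 up and 11 down (0.146% of genes). After median-of-ratios scaling of the samples 15 genes rose and 48 fell, with 8 and 18 DEGs, and after quantile normalization 11 and 41, with 7 and 17. The 51 genes lay at the very edge of the threshold, since 49 of them share an adjusted p of 0.00995. For 42 of the 51, the 3 d and 10 d samples did not overlap (23 up, 19 down), where 2.19% of all genes did not overlap upward and 0.787% downward. The 51 were chosen on these same values. That choice favours separate days, so the lack of overlap, here or gene by gene below, is no further support.

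The count depended heavily on single samples. Without *dd* 3 d replicate 4 the test called 1132 genes and without *DD* 10 d replicate 2 it called 507, both times with all of the 51 included. Without any one of the other 10 samples it called between 0 and 2. At an adjusted p below 0.05, a wider threshold used below to describe gene groups, 2362 genes were called, or 14.4%: 1846 were higher at 10 d (11.3%) and 516 lower (3.15%). These counts ran from 259 and 88 (1.58 and 0.537%) without *DD* 3 d replicate 3 to 3057 and 748 (18.7 and 4.56%) without *DD* 10 d replicate 2, and were 2848 and 848 (17.4 and 5.18%) without *dd* 3 d replicate 4. Of all genes, 1.95% were higher and 0.702% lower without *dd* 3 d replicate 3, and 3.34 and 1.52% without *DD* 10 d replicate 1. Without *DD* 10 d replicate 4 the shares were 2.28 and 0.812%, and without *dd* 10 d replicate 3 they were 8.24 and 3.09%. Counts of list members with 1 sample left out, given below, are therefore to be read against the counts of all genes in the same fit.

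The split between higher and lower depended on scaling at both thresholds. At 0.05 most calls, 78.2%, were higher at 10 d in TPM, but only 48.7% after median-of-ratios scaling (1013 higher, 6.18%, and 1066 lower, 6.51%). The median log2 fold change of all genes, 10 d minus 3 d, was 0.12 in TPM and 0.0045 after that scaling. Medians of gene groups are therefore given below less the all-gene median, and "rose" and "fell" are kept for genes past 0.01.

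The named gene that rose most on the log2 scale was weakly expressed. An AP2-domain transcription factor gene (*Sobic.007G077100*), of a family with many stress and developmental regulators, had 0.707 to 2.49 TPM at 3 d (median 1.76) and 3.71 to 21.1 TPM at 10 d (median 8.72). It rose by 2.00 ± 0.29 log2 units (SE, n = 6 and 6; limma adjusted p = 0.00995, as for each gene that rose or fell below unless another is given). Every 10 d sample was above every 3 d sample.

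A gene of the ABA/WDS family (*Sobic.006G078400*), whose proteins accumulate with abscisic acid (ABA) and water shortage, was far more abundant. Its level was 35.1 to 70.1 TPM at 3 d (median 45.5) and 90.1 to 288 TPM at 10 d (median 173), again without overlap. It rose by 1.77 ± 0.25 log2 units, by 1.71 in *DD* and 1.82 in *dd*. *Sobic.006G003700*, annotated as an ET translation product relative, rose by 1.86 ± 0.26 log2 units from a median of 10.4 to 39.5 TPM. The glutathione transferase gene *Sobic.001G318000*, whose enzyme class conjugates glutathione to toxic compounds, rose by 1.78 ± 0.28 from 1.03 to 6.94 TPM, and the protein kinase gene *Sobic.001G353900* by 1.51 ± 0.23 from 1.78 to 6.49 TPM. None of these genes overlapped between days.

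Medians of the next 3 genes were between 5.92 and 6.52 TPM at 3 d. *Sobic.006G155000* encodes MIA40, the import receptor of the space between the mitochondrial membranes, and rose by 1.2 ± 0.19 log2 units from a median of 6.42 to 17.4 TPM. *Sobic.010G255900* encodes ZIM17, a partner of the mitochondrial import chaperone, and rose by 1.08 ± 0.14 from 6.52 to 17.2 TPM. The translation initiation factor subunit gene EIF3G (*Sobic.006G181500*) rose by 1.2 ± 0.19 from 5.92 to 15.7 TPM. Day groups were separate for all of them.

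Of the remaining named genes that rose, *Sobic.004G145701*, a weakly expressed gene for ribosomal protein S27, went from a median of 1.56 to 4.08 TPM (1.07 ± 0.14 log2 units). Its reads may be shared with near-identical copies, so this value is uncertain. A gene with the WRC and QLQ domains of the growth-regulating factor family (*Sobic.010G077200*) rose by 1.01 ± 0.16, from 1.21 to 3.52 TPM. *Sobic.003G038400* and *Sobic.010G193000*, which lack an assigned function, rose by 1.44 ± 0.19 and 1.41 ± 0.18 log2 units. The authors had kept only genes above 3 TPM in 2 or more samples. In intact plants the AP2-domain, glutathione transferase, protein kinase, S27 and WRC and QLQ genes named above exceeded 3 TPM only at 10 d. Within these plants they met the filter only through the higher group, so their separation by day is no separate support.

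Among the genes that fell, one stood far below the rest. *Sobic.008G080400* is annotated as a relative of the beta-glucosidase that, in Arabidopsis, frees ABA from its stored glucose ester. The substrate of the sorghum enzyme was not tested. The gene had 28.4 to 214 TPM at 3 d (median 102) and 0.486 to 15.4 TPM at 10 d (median 2.16), so the days were fully separate. It fell by 4.65 ± 0.66 log2 units, by 5.47 in *DD* and 3.84 in *dd*. The ABA/WDS family gene described above moved the other way over the same days.

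The 2 genes with the lowest adjusted p both fell. *Sobic.003G010800* belongs to the SLAC1 family of anion channels, whose founding member in Arabidopsis drives stomatal closure. Its level was 51.2 to 74.95 TPM at 3 d (median 59.8) and 22.4 to 34.4 TPM at 10 d (median 31.3). It fell by 1.01 ± 0.10 log2 units and had the lowest adjusted p of all genes, 0.00429. *Sobic.010G251700*, a cation transporter with a TrkH domain, fell by 1.14 ± 0.12 (adjusted p = 0.00535), from 15.8 to 26.1 TPM at 3 d (median 20.6) to 5.67 to 11.1 TPM at 10 d (median 9.16). Neither gene overlapped between days. These 2 genes were the ones still called with pseudocounts of 0.1 and 3, without a variance trend and with robust variances.

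OLIGOPEPTIDE TRANSPORTER 3 (*Sobic.001G087700*), whose Arabidopsis counterpart loads iron into the phloem, had 41.6 to 81.7 TPM at 3 d and 21.0 to 39.9 TPM at 10 d and fell by 1.07 ± 0.16 log2 units. The aquaporin gene *Sobic.010G092600*, for a water channel, fell by 1.10 ± 0.15, from a median of 144 to 71.1 TPM. Its 10 d samples reached 121.9 TPM and overlapped the lowest 3 d sample at 111.0 TPM. A gene with the copper-carrier fold of ATOX1 (*Sobic.006G060200*) fell by 1.62 ± 0.25, from a median of 163 to 47.0 TPM, also with overlap.

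The remaining named DEGs that fell were expressed at lower levels. A homeobox gene of the HEX type (*Sobic.006G169200*) fell by 1.31 ± 0.21 log2 units, from a median of 4.24 to 1.04 TPM. *Sobic.010G275800*, related to LIP5, a protein of multivesicular body sorting, fell by 1.01 ± 0.16 from 25.9 to 12.6 TPM, and the hydroxyproline-rich glycoprotein gene *Sobic.001G371700* by 1.05 ± 0.16 from 10.5 to 4.30 TPM. *Sobic.008G087500*, with no assigned function, fell by 1.19 ± 0.18.

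Gene groups were taken from 38 lists drawn from the gene descriptions, with 1948 genes in at least 1 list. Of their members, 10 passed the 0.01 test (3 rose, 7 fell). At an adjusted p below 0.05, 331 members were called, 248 higher and 83 lower. Counts at that wider threshold are set below against the background of 11.3% higher and 3.15% lower.

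**Figure D2:**
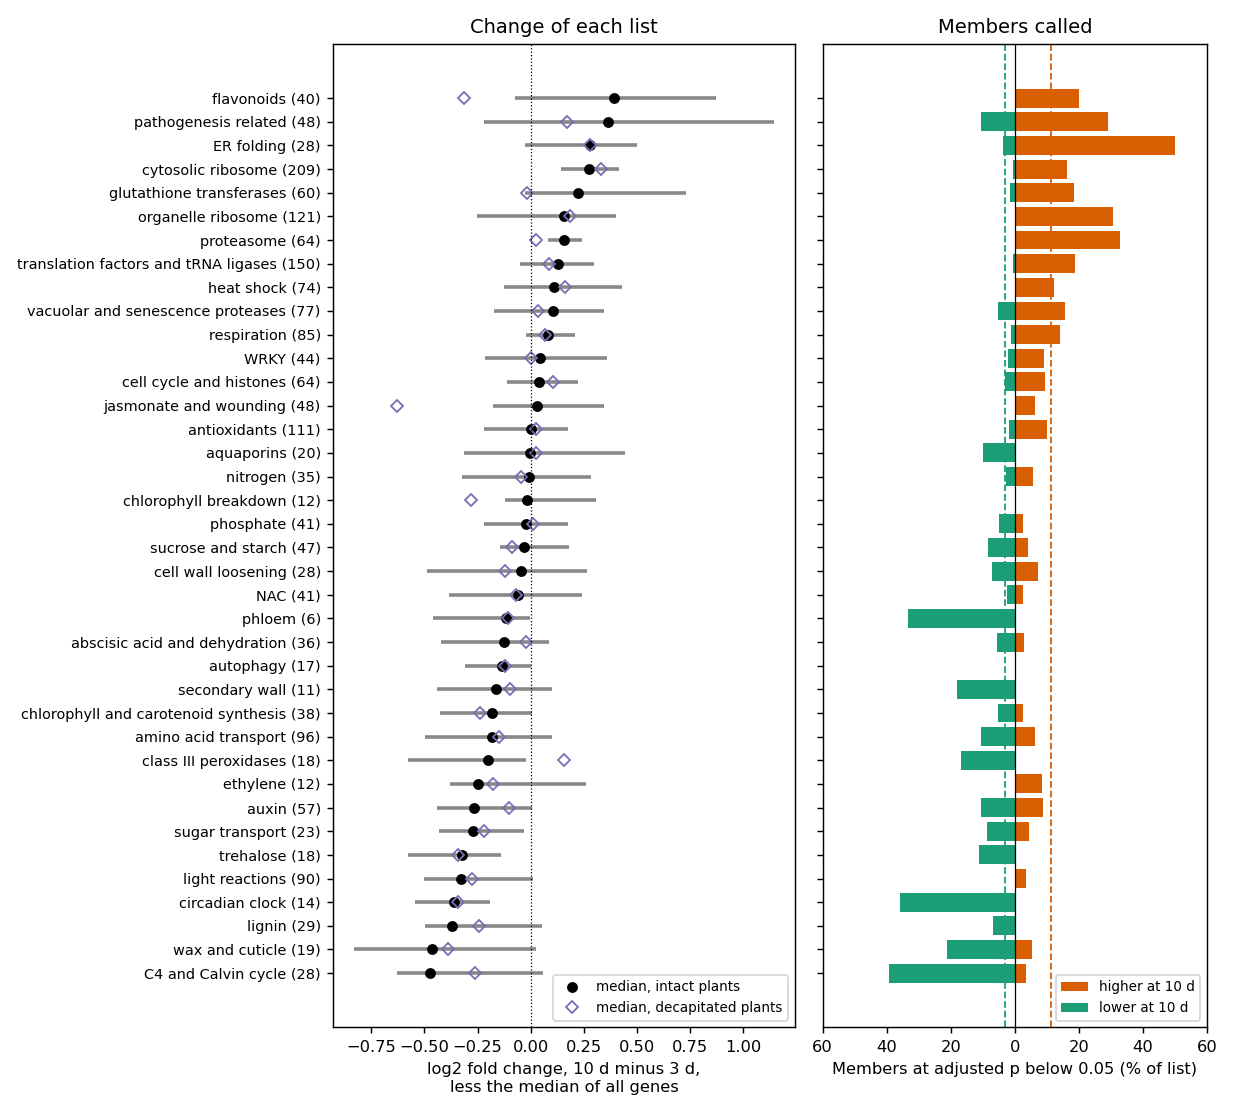
Left, the median (black circle) and middle quartiles (grey line) of the log2 fold change, 10 d minus 3 d, in each list, less the median of all genes, with the median in decapitated plants (open diamond); list sizes are in parentheses. Right, the percentage of members higher or lower at an adjusted p below 0.05, with the background (dashed, 11.3% and 3.15%); the C4 and Calvin cycle list has the lowest median, -0.47, and ER folding the largest share higher, 50%.

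Many carbon fixation genes were lower at 10 d. Of 28 C4 and Calvin cycle genes, 11 were lower (39.3%) and 1 higher at an adjusted p below 0.05, none past 0.01, and the list median was -0.47 log2 units less the all-gene median (-0.30 in *DD*, -0.56 in *dd*). After median-of-ratios scaling 12 were lower and 1 higher. Their summed level was 35260 to 46950 TPM at 3 d and 26900 to 35500 TPM at 10 d, and the highest 10 d value belonged to *DD* 10 d replicate 2. With single samples left out, the number lower ran from 1 to 14 while the median stayed between -0.57 and -0.41. Only 1 was lower without *DD* 3 d replicate 3, *dd* 3 d replicate 3, *DD* 10 d replicate 1 or *DD* 10 d replicate 4, and 14 without *DD* 10 d replicate 2, where the shares of all genes lower were 0.537 to 1.52% and 4.56%.

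The 4 marker genes of mesophyll and bundle sheath cells, all members of this list, summed to 21170 to 31680 TPM at 3 d and 16210 to 22020 TPM at 10 d, and the part of a changed cell share in these differences was not tested. The enzymes of the C4 entry steps shared the direction of the list. Carbonic anhydrase *Sobic.003G234200*, which supplies bicarbonate, had 3341 to 4765 TPM at 3 d (median 3930) and 2176 to 3498 TPM at 10 d (median 2504), lower by a difference of -0.59 ± 0.14 log2 units (limma adjusted p = 0.0240). The groups overlapped only between 3341 and 3498 TPM. PEP carboxylase (*Sobic.010G160700*) had 5889 to 9639 TPM at 3 d (median 7372) and 4277 to 6671 TPM at 10 d (median 5148), with a difference of -0.51 ± 0.15 (adjusted p = 0.0443) and overlap between days.

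The bundle sheath and Calvin cycle steps gave differences of like size. For the malic enzyme *Sobic.003G036200*, which releases CO2 in bundle sheath cells, the median was 2746 TPM at 3 d and 1867 TPM at 10 d (-0.55 ± 0.17 log2 units, adjusted p = 0.0499). For the Rubisco small subunit *Sobic.005G042000* it was 1748 and 1290 TPM (-0.50 ± 0.14, adjusted p = 0.0335). Chloroplastic fructose-1,6-bisphosphatase *Sobic.001G425400* had 227 and 142 TPM (-0.59 ± 0.14, adjusted p = 0.0255) and phosphoribulokinase *Sobic.004G272100* 1074 and 728 TPM (-0.50 ± 0.14, adjusted p = 0.0395). Day groups overlapped for each of these 4 genes.

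Members of the list did not all follow. Pyruvate, phosphate dikinase (*Sobic.009G132900*), the most abundant, had a median of 13800 TPM at 3 d and 10680 TPM at 10 d, but its difference of -0.40 ± 0.15 log2 units did not pass either threshold (adjusted p = 0.0928). The weakly expressed transketolase *Sobic.009G062800* was higher, 6.27 and 16.0 TPM (1.03 ± 0.25, adjusted p = 0.0255). A nuclear-listed copy of the Rubisco large subunit (*Sobic.005G194400*) was lower by a difference of -0.52 ± 0.15 (adjusted p = 0.0428), but its reads may come from the near-identical chloroplast gene, so the value is uncertain.

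**Figure D3:**
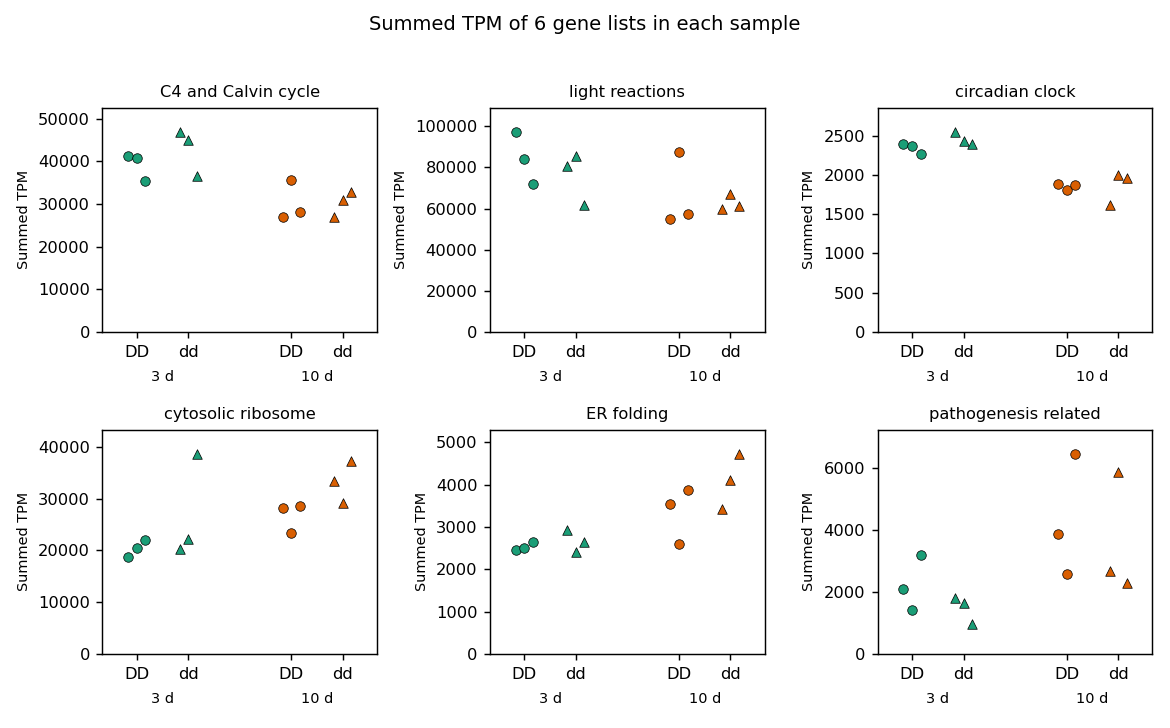
Summed TPM of 6 gene lists in each intact-plant leaf sample, by day and genotype (circles *DD*, triangles *dd*). C4 and Calvin cycle sums run from 35260 to 46950 TPM at 3 d and from 26900 to 35500 TPM at 10 d, and the circadian clock sums of the days do not overlap; *dd* 3 d replicate 4 holds the highest cytosolic ribosome sum, 38670 TPM.

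The light reactions showed a lower list median without calls in that direction. Of 90 genes for photosystems, antennae, electron transport and ATP synthase, 3 were higher and 0 lower at an adjusted p below 0.05, and 65 lay below the all-gene median, with a list median of -0.33 log2 units less that median. Sums were 61600 to 97380 TPM at 3 d and 55120 to 87410 TPM at 10 d. Both samples that lay on the other day's side of the first component set the overlap: the lowest 3 d sum was that of *dd* 3 d replicate 4 and the highest 10 d sum that of *DD* 10 d replicate 2. Without the former 15 genes were lower, without the latter 13, and without any other sample 0 or 1. Of all genes, 5.18% were lower without the former and 4.56% without the latter. The highest members, psbR (*Sobic.007G071500*) and the photoprotective psbS (*Sobic.003G370000*), had medians of 9692 and 4314 TPM at 3 d and 9219 and 4065 TPM at 10 d, with adjusted p values of 0.515 and 0.480.

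Pigment genes gave few calls. Of 38 genes for chlorophyll and carotenoid synthesis, 1 was higher and 2 lower at an adjusted p below 0.05 (list median -0.18 less all genes). Of 12 genes for chlorophyll breakdown none was called in either direction (median -0.02). Pheophorbide a oxygenase (*Sobic.001G048400*), the enzyme that opens the chlorophyll ring, had 140 to 177 TPM at 3 d and 108 to 172 TPM at 10 d (-0.34 ± 0.12 log2 units, adjusted p = 0.0636). The chlorophyll b reductase gene *Sobic.003G010600*, for the first step of chlorophyll b loss, had 57.1 to 190 TPM at 3 d and 84.0 to 174 TPM at 10 d (0.44 ± 0.27, adjusted p = 0.264). In whole leaf tissue, fewer cells of a type and less RNA per cell cannot be told apart, for these genes as for the others.

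Key transcripts for the making and loading of sucrose fell. The sucrose transporter *SbSUT1* (*Sobic.001G488700*), which loads sucrose into the phloem, had 449 to 580 TPM at 3 d (median 559) and 297 to 403 TPM at 10 d (median 334). It fell by 0.69 ± 0.09 log2 units, and all 10 d samples were below all 3 d samples, the lowest of which was *dd* 3 d replicate 4. Sucrose-phosphate synthase 3 (*Sobic.003G403300*), of the committed step of sucrose synthesis, had 502 to 620 TPM at 3 d (median 574) and 317 to 466 TPM at 10 d (median 333). It fell by 0.71 ± 0.11, also without overlap, and its highest 10 d value was that of *DD* 10 d replicate 2. A second sucrose-phosphate synthase gene, *Sobic.005G089600*, was lower, 234 and 120 TPM by median (-0.84 ± 0.18, adjusted p = 0.0171).

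The SWEET pores, which let sugars out of cells, differed among themselves. *SbSWEET13A* (*Sobic.008G094000*), the most abundant sugar transporter measured, had 1588 to 1875 TPM at 3 d (median 1699) and 1060 to 1580 TPM at 10 d (median 1315). Its days did not overlap, although the gap was only that between 1580 and 1588 TPM, and the difference was -0.40 ± 0.11 log2 units (adjusted p = 0.0375). *SbSWEET3A* (*Sobic.009G080900*) was higher, with 34.1 to 48.3 TPM at 3 d (median 38.4) and 47.8 to 104 TPM at 10 d (median 94.8; 1.03 ± 0.17, adjusted p = 0.0132). Of all 23 sugar transport genes, 1 was higher and 2 lower at 0.05, and 18 lay below the all-gene median (list median -0.27).

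Other genes of sugar turnover moved in both directions. Of 47 sucrose and starch genes, 2 were higher and 4 lower at 0.05 (median -0.03). The cytosolic invertase *SbCIN5* (*Sobic.004G163800*), which splits sucrose, had a median of 106 TPM at 3 d and 146 TPM at 10 d (0.42 ± 0.10 log2 units, adjusted p = 0.0255). The beta-amylase genes *Sobic.001G293800* and *Sobic.001G226600*, for starch breakdown, were lower: 84.3 and 54.6 TPM (-0.85 ± 0.26, adjusted p = 0.0457) and 6.09 and 2.01 TPM (-1.29 ± 0.27, adjusted p = 0.0166). Of the 3 phloem markers other than *SbSUT1*, the phloem protein gene *Sobic.001G532000* was lower (-0.45 ± 0.12, adjusted p = 0.0294) and the others had differences of 0.19 and 0.0011. Their part in the *SbSUT1* result was not tested.

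**Figure D4:**
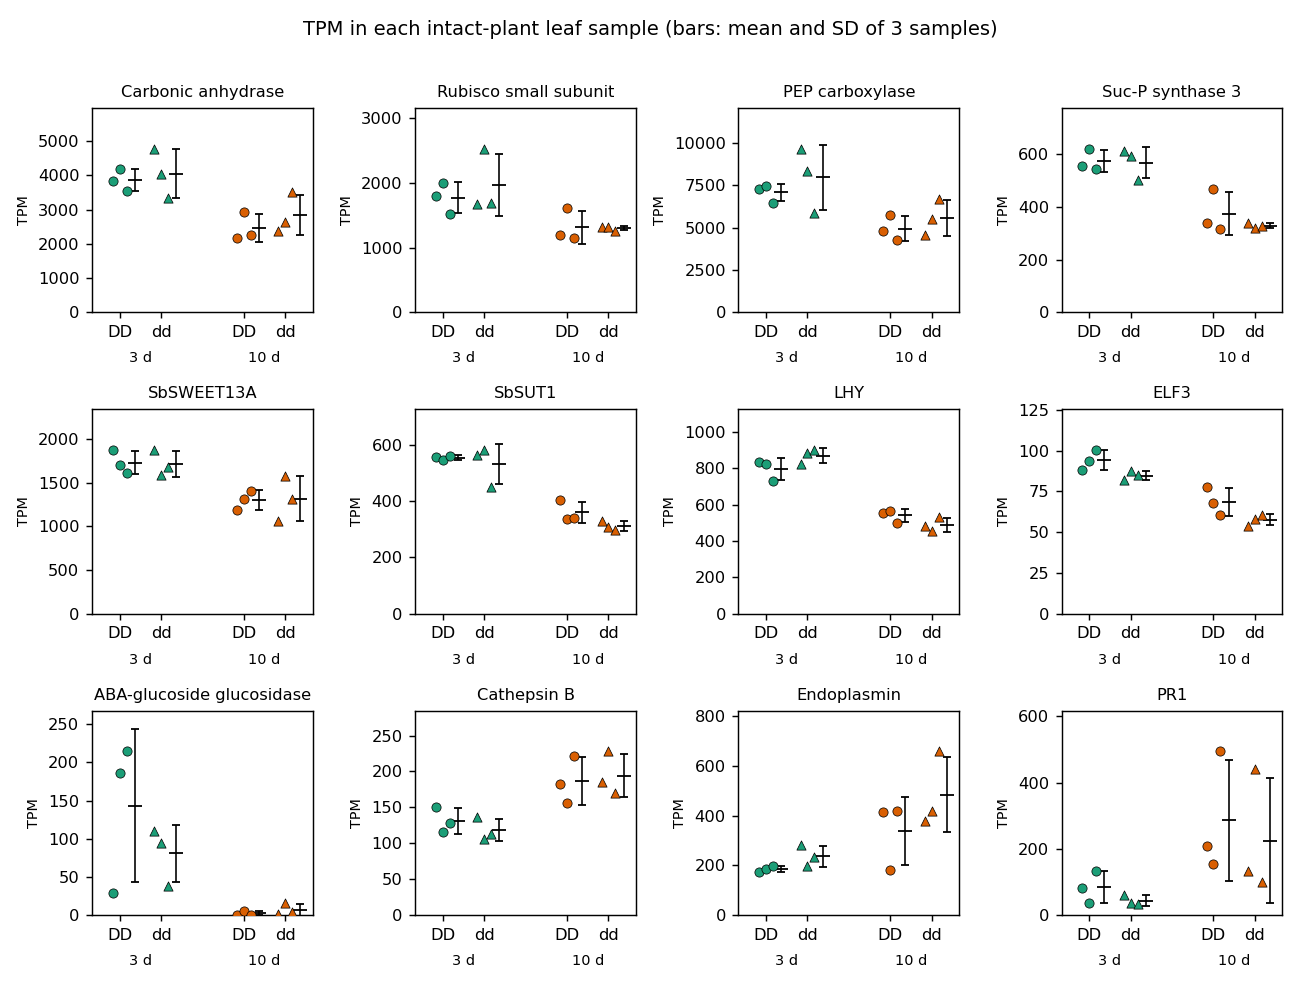
TPM of 12 genes in each intact-plant leaf sample by day and genotype (circles *DD*, triangles *dd*; lines, mean and SD of 3 samples; PEP, phosphoenolpyruvate; Suc-P, sucrose-phosphate; ABA, abscisic acid). The days are separate for *SbSUT1*, *SbSWEET13A*, sucrose-phosphate synthase 3, LHY, ELF3, the ABA-glucoside glucosidase and cathepsin B, and overlap for the other genes.

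Several genes of the circadian clock were lower at 10 d. The morning-phased MYB gene LHY (*Sobic.007G047400*) had 729 to 901 TPM at 3 d (median 831) and 454 to 566 TPM at 10 d (median 516) and fell by 0.69 ± 0.09 log2 units, by 0.56 in *DD* and 0.83 in *dd*, with no overlap. ELF3 (*Sobic.003G191700*), of the evening complex, had 81.9 to 100 TPM at 3 d and 53.9 to 77.7 TPM at 10 d (-0.50 ± 0.08, adjusted p = 0.0132), also apart. Of 14 clock genes 5 were lower (35.7%) and 0 higher at 0.05, and the summed level of the list was 2270 to 2550 TPM at 3 d and 1620 to 2003 TPM at 10 d. The number lower was 2 without *DD* 3 d replicate 3, *dd* 3 d replicate 3 or *DD* 10 d replicate 4, and 5 without any other sample. In the fits with 2 lower, 0.537, 0.702 and 0.812% of all genes were lower, in that order.

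The other clock genes lower at 0.05 included light receptors that set the clock. Cryptochrome 1 (*Sobic.006G101600*), a blue light receptor, had a median of 123 TPM at 3 d and 87.4 TPM at 10 d (-0.44 ± 0.10 log2 units, adjusted p = 0.0200), and the cryptochrome *Sobic.004G188400* 75.5 and 56.7 TPM (-0.36 ± 0.08, adjusted p = 0.0193). The REVEILLE 1 relative *Sobic.010G275700* had 138 and 91.5 TPM (-0.57 ± 0.12, adjusted p = 0.0200). Each overlapped between days. The hour at which each leaf was cut is not given in the sources used here. Leaf age and the hour or weather of sampling therefore cannot be told apart, for these genes or for any others compared between the days.

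Protease genes differed in both directions. Of 77 vacuolar and senescence protease genes, 12 were higher (15.6%) and 4 lower (5.19%) at 0.05, and 9 and 5 after median-of-ratios scaling (list median 0.11). Cathepsin B (*Sobic.002G315800*), a vacuolar cysteine protease, had 106 to 151 TPM at 3 d (median 122) and 156 to 228 TPM at 10 d (median 183), with no overlap and a difference of 0.60 ± 0.12 log2 units (adjusted p = 0.0164). Cathepsin H (*Sobic.002G217200*) had a median of 168 TPM at 3 d and 302 TPM at 10 d (0.74 ± 0.16, adjusted p = 0.0171), and its lowest 10 d sample was *DD* 10 d replicate 2. The number higher ran from 1 to 24 when single samples were left out, lowest without *DD* 3 d replicate 3 and highest without *DD* 10 d replicate 2.

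Single proteases went further. A serine carboxypeptidase gene (*Sobic.002G121300*) had 18.0 to 157 TPM at 3 d (median 32.3) and 81.7 to 315 TPM at 10 d (median 223), a difference of 2.14 ± 0.49 log2 units (adjusted p = 0.0222) with overlap. The C1 cysteine protease gene *Sobic.001G086800* was lower, with medians of 107 and 50.3 TPM (-1.05 ± 0.23, adjusted p = 0.0207). The most abundant protease genes, *Sobic.004G142800* and the vacuolar processing enzyme *Sobic.003G190100*, passed neither threshold (0.50 ± 0.16, adjusted p = 0.0549, and -0.15 ± 0.34, adjusted p = 0.780).

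For the proteasome, which degrades ubiquitin-tagged proteins, 21 of 64 genes were higher (32.8%) and 0 lower at 0.05, with a list median of 0.16, and 7 were higher and 1 lower after median-of-ratios scaling. The most abundant gene that the descriptions placed in this list, *Sobic.005G231500*, stood on the other side. It had 1012 to 1703 TPM at 3 d (median 1544) and 648.1 to 1499 TPM at 10 d (median 902). Its difference was -0.62 ± 0.19 log2 units (limma adjusted p = 0.0503). The gene is annotated as RPT4, an ATPase of the regulatory particle, by a family label that 3 genes share. Its mean over the intact-plant samples was 1197 TPM, where the next member had 283 TPM. Whether it encodes a proteasome subunit was not tested, so its place in the list is uncertain. RPT6 (*Sobic.004G086600*), the next most abundant member, had 231.3 to 272.4 TPM at 3 d and 271.5 to 337.4 TPM at 10 d (0.29 ± 0.09, adjusted p = 0.0476). The 20S subunit genes PSMA7 (*Sobic.007G177200*) and PSMB1 (*Sobic.007G195100*) had medians of 38.8 and 28.9 TPM at 3 d and 61.9 and 74.7 TPM at 10 d (0.60 ± 0.12, adjusted p = 0.0166, and 1.23 ± 0.34, adjusted p = 0.0334). The number higher ran from 2 without *DD* 3 d replicate 3 to 34 without *dd* 3 d replicate 4, where 1.58% and 17.4% of all genes were higher. None of 17 autophagy genes was called (median -0.13). Neither gene for ATG8, the protein that coats autophagosomes, passed a threshold: 396 and 344 TPM by median for *Sobic.007G068900* (adjusted p = 0.374) and 230 and 234 TPM for *Sobic.006G220900* (adjusted p = 0.953).

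Nitrogen genes split by member. Of 35 nitrogen genes 2 were higher and 1 lower at 0.05 (median -0.01). The ammonium transporter *Sobic.006G143100* was lower, 103 and 64.0 TPM by median (-0.74 ± 0.16 log2 units, adjusted p = 0.0177), while a related gene, *Sobic.004G217800*, was higher, 9.81 and 19.3 TPM (0.98 ± 0.28, adjusted p = 0.0395). Glutamine synthetase *Sobic.004G247000*, which assimilates ammonium, had 808 and 668 TPM (-0.19 ± 0.13, adjusted p = 0.331), and nitrate reductase *Sobic.007G153900* had 937 and 494 TPM with wide overlap (-0.71 ± 0.25, adjusted p = 0.0685). Of 96 amino acid and peptide transport genes, 6 were higher (6.25%) and 10 lower (10.4%), with a list median of -0.18, and 3 and 18 after median-of-ratios scaling. The number lower ran from 1 without *DD* 3 d replicate 3 or *dd* 3 d replicate 3 to 14 without *dd* 3 d replicate 4. Of all genes, 0.537, 0.702 and 5.18% were lower in those fits, in that order.

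Some genes of protein synthesis were higher, by small amounts. Of 209 cytosolic ribosomal protein genes, 34 were higher (16.3%) and 1 lower at 0.05, and 21 lay below the all-gene median (list median 0.28). Summed, they held 18720 to 38670 TPM at 3 d and 23470 to 37230 TPM at 10 d. The highest 3 d sum was that of *dd* 3 d replicate 4, far above the next, 22310 TPM. Without that sample 166 were higher, and without any of the others between 3 and 46. After median-of-ratios scaling 8 were higher and 2 lower, against backgrounds of 6.18 and 6.51%. The S8 gene *Sobic.006G035900*, as an example, had a median of 19.6 TPM at 3 d and 46.2 TPM at 10 d (1.04 ± 0.21 log2 units, adjusted p = 0.0159).

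Of 121 organelle ribosome genes, 37 were higher (30.6%) and 0 lower at 0.05 (median 0.16), and of 150 translation factor and tRNA ligase genes 28 were higher (18.7%) and 1 lower (median 0.13). These counts became 11 and 1 and 13 and 4 after median-of-ratios scaling. With single samples left out the numbers higher ran from 2 without *DD* 3 d replicate 3 (for organelle ribosomes also without *dd* 3 d replicate 3) to 58 and 57 without *dd* 3 d replicate 4, and without *DD* 10 d replicate 2 as many as 13 organelle ribosome genes were lower. Of 28 folding genes of the endoplasmic reticulum (ER), 14 were higher (50%) and 1 lower, and 10 and 1 after that scaling, all 10 of them among the 14 (list median 0.28). Their sum was 2405 to 2941 TPM at 3 d and 2593 to 4731 TPM at 10 d; the lowest 10 d value, and the only one below the 3 d maximum, was that of *DD* 10 d replicate 2. Without that sample 17 were higher, and without *dd* 3 d replicate 3, the other extreme, 1. Of all genes, 18.7% and 1.95% were higher in those fits, in that order.

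Endoplasmin (*Sobic.010G267400*), the ER form of the chaperone HSP90, had 171 to 281 TPM at 3 d (median 197) and 181 to 659 TPM at 10 d (median 416), a difference of 0.89 ± 0.21 log2 units (adjusted p = 0.0240). The calreticulin and calnexin family gene *Sobic.009G190500*, for sugar-binding chaperones, had medians of 338 and 549 TPM (0.65 ± 0.16, adjusted p = 0.0243), and the protein disulfide isomerase *Sobic.009G051600*, which forms disulfide bonds, 37.9 and 62.3 TPM (0.64 ± 0.13, adjusted p = 0.0171). Day groups overlapped in all 3. The gene that was lower is derlin *Sobic.001G009300*, which helps export misfolded proteins from the ER (-0.30 ± 0.08, adjusted p = 0.0357).

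Defence genes were among the larger differences. Of 48 pathogenesis-related genes, 14 were higher (29.2%) and 5 lower (10.4%) at 0.05, 11 and 5 after median-of-ratios scaling, with a list median of 0.37. Both shares were above the background of all genes, 11.3% higher and 3.15% lower. PR1 (*Sobic.002G023300*), a classical marker of salicylate responses and leaf senescence, had 32.9 to 132 TPM at 3 d (median 49.5) and 99.3 to 494 TPM at 10 d (median 182). Its difference was 1.92 ± 0.42 log2 units (adjusted p = 0.0189), with overlap. The chitinase genes *Sobic.010G240400* and *Sobic.003G244600*, for enzymes that attack fungal walls, had medians of 92.5 and 126 TPM at 3 d and 346 and 337 TPM at 10 d (1.8 ± 0.49, adjusted p = 0.0329, and 1.38 ± 0.26, adjusted p = 0.0143).

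Members of the thaumatin family, of which many are antifungal, went both ways. *Sobic.008G183300* had 12.2 TPM at 3 d and 79.7 TPM at 10 d by median (2.55 ± 0.64 log2 units, adjusted p = 0.0265). *Sobic.001G439200* had 88.6 and 43.8 TPM (-0.97 ± 0.19, adjusted p = 0.0156). The single list member past 0.01 fell: *Sobic.001G109400*, a glucan endo-1,3-beta-glucosidase gene, had 6.04 to 8.12 TPM at 3 d and 3.41 to 4.55 TPM at 10 d (fell by 0.71 ± 0.11) with no overlap. The number of list members higher ran from 3 without *DD* 3 d replicate 3 or *DD* 10 d replicate 4 to 17 without *DD* 10 d replicate 2.

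Counts for detoxification and flavonoid genes were small. Of 60 glutathione transferase genes 11 were higher (18.3%) and 1 lower at 0.05 (median 0.22), 7 and 2 after median-of-ratios scaling. Of 40 flavonoid genes 8 were higher (20%) and 0 lower (median 0.39), 6 and 0 after that scaling. The numbers higher ran from 3 to 16 and from 2 to 12 with single samples left out, with the lowest counts without *DD* 3 d replicate 3 or *dd* 3 d replicate 3, for flavonoids also without *DD* 10 d replicate 1 or 4, and the highest without *DD* 10 d replicate 2. Of all genes, 1.58 to 3.34% were higher in the fits with the lowest counts and 18.7% in that with the highest. A flavonoid 3'-hydroxylase gene (*Sobic.002G040400*), whose enzyme class adds a hydroxyl group to flavonoids, had 1.74 to 10.9 TPM at 3 d (median 4.998) and 10.6 to 85.6 TPM at 10 d (median 28.3; 2.48 ± 0.44 log2 units, adjusted p = 0.0132). An anthocyanidin reductase gene (*Sobic.006G227300*) had medians of 12.7 and 41.9 TPM (1.49 ± 0.38, adjusted p = 0.0273). In the jasmonate and wounding list 3 of 48 genes were higher (6.25%) and 0 lower, among them the 12-oxophytodienoate reductase family gene *Sobic.006G091700* (12.4 and 29.1 TPM, 1.17 ± 0.22, adjusted p = 0.0136).

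Several genes of the leaf surface and wall were lower. Of 19 wax and cuticle genes, 4 were lower (21.1%) and 1 higher at 0.05, with a list median of -0.46. The number lower ran from 2 without *DD* 3 d replicate 3, *dd* 3 d replicate 3 or *DD* 10 d replicate 4 to 7 without *dd* 3 d replicate 4. Of all genes, 0.537 to 0.812% were lower in the former fits and 5.18% in the latter. The 3-ketoacyl-CoA synthases that lengthen wax precursors, *Sobic.001G453200* and *Sobic.001G482300*, had medians of 28.8 and 41.2 TPM at 3 d and 14.3 and 23.1 TPM at 10 d (-0.94 ± 0.17, adjusted p = 0.0132, and -0.95 ± 0.22, adjusted p = 0.0236). ECERIFERUM 1 (*Sobic.006G211000*), of wax alkane synthesis in Arabidopsis, had 64.6 and 39.98 TPM (-0.74 ± 0.21, adjusted p = 0.0370). Very-long-chain enoyl-CoA reductase (*Sobic.003G071600*) had 111 to 169 TPM at 3 d and 62.6 to 102 TPM at 10 d (-0.69 ± 0.14, adjusted p = 0.0164) with no overlap. The gene that was higher, *Sobic.002G137300*, encodes the ketoacyl-CoA reductase of the same elongation cycle (50.8 and 68.4 TPM, 0.54 ± 0.12, adjusted p = 0.0217).

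The 9 epidermis markers, all 3-ketoacyl-CoA synthase genes of this list, include both of those named above and are no separate measure. Their differences ran from -1.07 to 0.85 log2 units and their sums from 120.3 to 329.4 TPM at 3 d and from 102 to 174.8 TPM at 10 d. In the wall lists, the pectinesterase gene *Sobic.003G376900*, for an enzyme that removes methyl groups from pectin, fell by 0.92 ± 0.14 log2 units, from 10.5 to 18.9 TPM at 3 d (median 15.9) to 5.84 to 8.95 TPM at 10 d (median 7.47). A second pectinesterase gene, *Sobic.001G198800*, had 19.4 to 99.6 TPM at 3 d (median 44.4) and 2.71 to 18.3 TPM at 10 d (median 7.02; -2.41 ± 0.42, adjusted p = 0.0132). Days were separate for both. In the cell wall loosening list of 28 genes, 2 were higher and 2 lower at 0.05. Of 29 lignin genes 0 were higher and 2 lower at 0.05 (median -0.37). One of them is the hydroxycinnamoyltransferase gene *Sobic.003G068800*, which directs phenylpropanoids to lignin (51.2 and 12.2 TPM, -1.87 ± 0.40, adjusted p = 0.0177).

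The genes past the test moved in the same direction in *DD* and *dd* leaves. All 51 had the same sign in both genotypes when each was taken by itself. Both genotypes had entered the call, so the choice of genes favoured a shared sign. The interaction of genotype and day, which asks whether the change differs between *DD* and *dd*, gave 0 genes in limma at an adjusted p below 0.01 and 0 at 0.05, with 322 genes at an unadjusted p below 0.05 (1.97% of genes). A missing interaction call does not show that the genotypes changed alike.

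Leaves of decapitated plants gave a separate set of 12 samples over the same days. Any effect of the date, hour or weather of sampling may be common to both sets, and this was not tested. Of the 51 genes, all 26 that rose and 23 of the 25 that fell had the same sign there, where 72.9% of all genes did. At an adjusted p below 0.05, 27 of them (52.9%) were called in the same direction in decapitated plants and 0 in the opposite one, beside 10.9% of all genes higher and 2.8% lower. By themselves those plants gave 39 genes at an adjusted p below 0.01 (0.238%). *SbSUT1* (*Sobic.001G488700*) had -0.68 log2 units there and LHY (*Sobic.007G047400*) -0.74 (both adjusted p = 0.0111), and sucrose-phosphate synthase 3 (*Sobic.003G403300*) -0.66 (adjusted p = 0.0185). The beta-glucosidase relative *Sobic.008G080400* had -3.95 (adjusted p = 0.0286). The AP2-domain gene *Sobic.007G077100* had 0.11 (adjusted p = 0.933) and the ABA/WDS gene *Sobic.006G078400* 0.74 (adjusted p = 0.221). For the SLAC1-family gene *Sobic.003G010800*, with the lowest adjusted p in intact plants, it was -0.37 (limma adjusted p = 0.0656). The median change of the genes that rose was 0.99 in intact and 0.74 in decapitated plants. That of the genes that fell was -0.94 and -0.54. The genes were chosen in intact plants, which favours larger changes there.

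**Figure D5:**
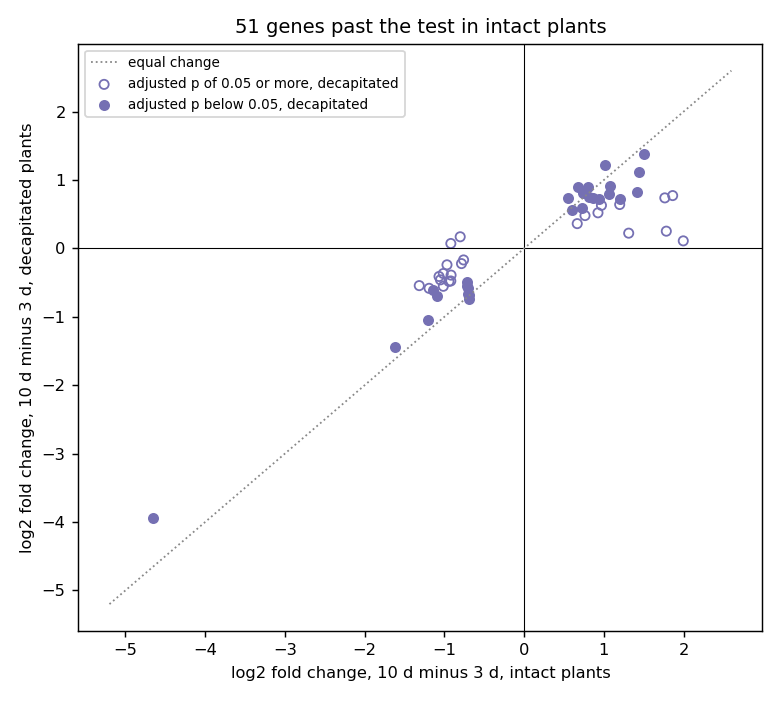
Log2 fold change, 10 d minus 3 d, of the 51 genes past the test in intact plants (horizontal) and in decapitated plants (vertical), with 6 samples a day in each; filled points have an adjusted p below 0.05 in decapitated plants and the dotted line marks equal change. All but 2 points share their sign, and 27 are filled.

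Whether the heads altered the change from 3 to 10 d was tested directly over 24 leaf samples. In limma 0 genes passed at an adjusted p below 0.01 and 0 at 0.05, with 1431 at an unadjusted p below 0.05 (8.73%). The lack of calls does not show that intact and decapitated plants changed alike. Several lists had unlike medians in the 2 sets of plants, each less its all-gene median: 0.39 in intact and -0.32 in decapitated plants for flavonoids, and 0.03 and -0.63 for jasmonate and wounding. Closer pairs were 0.28 and 0.28 for ER folding, -0.36 and -0.34 for the clock and -0.33 and -0.28 for the light reactions. Counts at an adjusted p below 0.05 differed too, in intact and then decapitated plants. Lower were 11 and 2 C4 and Calvin cycle genes and 5 and 1 clock genes. Higher were 14 and 1 pathogenesis-related genes, 11 and 1 glutathione transferase genes and 21 and 5 proteasome genes. For ER folding 14 and 11 were higher, and for the cytosolic ribosome 34 and 100. Of all genes, 11.3 and 10.9% were higher and 3.15 and 2.8% lower. These differences between the 2 sets of plants were not tested.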

How the data were processed

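Leaf mRNA was sequenced, and per the labels' processing notes the reads went through FastQC, Trimmomatic and STAR; versions are not given in the sources used here. The authors deposited TPM (column sums 994771 to 995806) after dropping genes that did not exceed 3 TPM in 2 or more samples; read counts were not used here. TPM + 1 was log2-transformed and modelled on genotype and day in R 4.3.3 by limma 3.58.1, with a mean-variance trend, two-sided, adjusted by Benjamini and Hochberg over 16386 genes. The thresholds were an adjusted p of 0.01 and, for DEGs, 1 log2 unit. Fold changes on this scale understate the change of low genes. Interactions were fitted with 4 group means over 12 samples and 8 over 24. The script was tested on simulated data.

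The members and the 38 lists were chosen with earlier results of these data known. The SWEET family's annotation was added to the sugar transport list, and mannosyl enzymes were taken out of the sucrose and starch list, after values were seen. By rule the text names up to 12 DEGs each way that have a description and 1 sign in both genotypes, up to 4 list members past the test, and, for lists with none, from their 2 members with the highest mean TPM. Genes given at the 0.05 level were chosen after their values were seen. 1614 genes have no description. The gene of the *D* locus and nucleotide sequences were not analysed here. Alternatives were other pseudocounts, filters, scalings, variance models, weights, sample sets, a replicate block, a threshold of 0.05 and leaving out each sample.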

Additional observations from a re-analysis of the deposited data

Results flagged for a closer look

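Among 264 sets of 6 same-day values checked (the named genes and the list sums), 15 had 1 sample far from the other 5. That is near the rate that chance gives, about 1 in 20. The sample *dd* 3 d replicate 4 accounted for several. It held 449.2 TPM of *SbSUT1* (*Sobic.001G488700*), where the next 3 d sample held 545.3 TPM, 145.6 TPM of *SbCIN5* (*Sobic.004G163800*; next 111.8 TPM) and 63.46 TPM of the thaumatin gene *Sobic.001G439200* (next 85.1 TPM). Its summed level was 38670 TPM for the cytosolic ribosome (next 22310 TPM), 16690 TPM for translation factors and tRNA ligases (next 13910 TPM) and 550.8 TPM for the phloem list (next 655.5 TPM).

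*DD* 10 d replicate 2 held 466.3 TPM of sucrose-phosphate synthase 3 (*Sobic.003G403300*; next 340.6 TPM), 192.3 TPM of cathepsin H (*Sobic.002G217200*; next 277.2 TPM) and 12.84 TPM of the 12-oxophytodienoate reductase family gene *Sobic.006G091700* (next 28.65 TPM). *DD* 3 d replicate 4 held 140.4 TPM of pheophorbide a oxygenase (*Sobic.001G048400*; next 168.7 TPM) and a jasmonate and wounding sum of 4253 TPM (next 2501 TPM). In *DD* 10 d replicate 1, nitrate reductase (*Sobic.007G153900*) stood at 856.5 TPM (next 519.8 TPM) and the cell cycle and histone sum at 6784 TPM (next 4361 TPM). In *dd* 10 d replicate 4, the C1 protease gene *Sobic.004G142800* stood at 989.1 TPM (next 1389 TPM) and the beta-amylase gene *Sobic.001G293800* at 19.93 TPM (next 49.58 TPM).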

How the results depend on the processing

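The counts of genes past 0.01 (51), DEGs (24) and list members past 0.01 (10) moved widely. In that order they were 2, 2 and 0 with a pseudocount of 0.1, 2, 1 and 0 with one of 3, 19, 8 and 3 for genes of 10 TPM or more on average, and 2, 2 and 0 both without a variance trend and with robust variances. They were 3245, 459 and 500 with array weights (a fit that stopped before full convergence), 587, 97 and 61 with 8 group means over 24 leaf samples, 3519, 132 and 521 with day, genotype and treatment added up over those 24, 0, 0 and 0 within *DD* and likewise within *dd* in limma, and 2362, 295 and 331 at a threshold of 0.05. Leaving out single samples gave 0 to 1132 genes, 0 to 259 DEGs and 0 to 230 list members. Median-of-ratios scaling gave 63 genes, of which 15 rose and 48 fell, and quantile normalization 52, with 11 and 41; 39 and 33 of the 51 genes remained. The cause of these moves was not tested.

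With the replicate block the counts were 0, 0 and 0, with 1229 genes higher and 308 lower at 0.05. Deviations of same-numbered 3 d and 10 d samples correlated from -0.218 to 0.515, and those of differently numbered samples from -0.625 to 0.687. With so few samples these values cannot decide whether the numbers mark a shared block. Both interactions gave 0 genes under each alternative run for them. Of 94 named genes, 90 kept their direction in every alternative run. The exceptions, none of them called, were psbR (*Sobic.007G071500*), 0.0606 after quantile normalization; psbS (*Sobic.003G370000*), 0.0413 within *DD*; *Sobic.006G220900*, 0.0108 with array weights, 0.0334 within *DD* and -0.0574 to 0.0534 with single samples left out; and *Sobic.003G190100*, 0.0145 within *DD*, 0.2229 with additive terms over 24 samples and -0.3232 to 0.112 with single samples left out. Depth is unknown, and 6 samples a day limit the precision: the median SE over all genes was 0.15 log2 units.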

Other observations

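Transcription factor families contained members that differed in opposite directions. The NAC gene *Sobic.008G183900*, of the family to which *SbNAC074A* belongs, had 1.32 to 4.81 TPM at 3 d (median 2.94) and 6.60 to 40.8 TPM at 10 d (median 11.7), with no overlap (1.85 ± 0.35 log2 units, limma adjusted p = 0.0140). In decapitated plants its difference was 1.67 (adjusted p = 0.0226). Another NAC gene, *Sobic.003G409800*, had medians of 8.44 and 5.38 TPM, also without overlap (-0.62 ± 0.17, adjusted p = 0.0330). Of WRKY genes, which often act in defence and senescence, *Sobic.008G029200* had 2.00 and 14.2 TPM (2.27 ± 0.40, adjusted p = 0.0132) and *Sobic.006G206000* 54.0 and 36.1 TPM (-0.74 ± 0.15, adjusted p = 0.0166). Over the families, 1 of 41 NAC genes was higher and 1 lower at 0.05, and 4 of 44 WRKY genes were higher and 1 lower.

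Of 74 heat shock genes, 9 were higher (12.2%) and 0 lower at 0.05, and 4 and 3 after median-of-ratios scaling; the number higher ran from 0 without *DD* 3 d replicate 3 to 14 without *DD* 10 d replicate 2 or *dd* 10 d replicate 3. HSP90-1 (*Sobic.006G005600*), a cytosolic chaperone, had 11.7 to 17.3 TPM at 3 d (median 14.7) and 16.2 to 165 TPM at 10 d (median 48.1; 1.75 ± 0.50, adjusted p = 0.0395). The vacuolar aquaporin gene TIP2-1 (*Sobic.010G146100*) had medians of 18.3 and 6.002 TPM (-1.33 ± 0.31, adjusted p = 0.0226), and of 20 aquaporin genes 0 were higher and 2 lower. In the respiration list 12 of 85 genes were higher and 1 lower (3 and 1 after median-of-ratios scaling), and in the auxin list 5 of 57 were higher and 6 lower (4 and 12). Among antioxidants 11 of 111 were higher and 2 lower (5 and 5 after that scaling), and of 64 cell cycle and histone genes 6 were higher and 2 lower (1 and 6). Of 18 class III peroxidase genes 0 were higher and 3 lower, of 18 trehalose genes 0 and 2, of 11 secondary wall genes 0 and 2, and of 6 phloem genes 0 and 2. The counts were 2 and 2 of 28 cell wall loosening genes, 1 and 2 of 41 phosphate genes, 1 and 2 of 36 genes of the ABA and dehydration list, and 1 and 0 of 12 ethylene genes.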
